A study of Mus musculus with 18 samples.

Results

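Wnt ligands, their receptors and their secreted antagonists were followed in the embryonic mouse heart over 5 stages, as the transcripts of 40 listed genes among the 49315 Ensembl genes counted in every library. The genes were taken by symbol, mapped from the Ensembl identifier. The rule uses no measured value, and the list was drawn up with earlier results of these data known. They comprised 12 Wnt ligands, 10 Frizzled receptors, 4 co-receptors (Lrp5, Lrp6, Ror1 and Ror2), 9 secreted antagonists, 2 R-spondins and 3 genes read as transcripts of canonical signalling (Axin2, Lef1 and Tcf7). Each symbol matched exactly 1 identifier. RNA came from hearts of wild-type C57BL/6 embryos with males and females pooled, and no allele or agent set the groups apart. The groups were embryonic day 9.5 (E9.5, 3 libraries), E10.5 (4 libraries), E12.5 (4 libraries), E14.5 (3 libraries) and E16.5 (4 libraries). The series title names proteomic profiling of heart development and the mevalonate pathway in cardiomyocyte proliferation, and the RNA libraries form a time course through the stages. Whether the replicate libraries stem from different litters is not stated in the labels. The p-values therefore reflect only how far replicate libraries differed, part of which may be technical.

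Wnt proteins are secreted lipid-modified ligands that bind Frizzled receptors together with a co-receptor. With Lrp5 or Lrp6 as the co-receptor, the canonical branch stabilises beta-catenin, which acts with Tcf and Lef factors on target genes such as Axin2, whereas Ror receptors serve the noncanonical branches that steer cell polarity and movement. In the mouse heart, Wnt signals are known from the specification of cardiac progenitors, the outflow tract, the valves and the epicardium, and canonical signalling acts on progenitors and on later myocytes in different ways.

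Library totals ran from 30744015 to 45646538 counts, and levels are given as CPM, the usual depth-scaled unit, after scaling by trimmed means of M-values (TMM). Cardiomyocyte markers were present at every stage, and their summed level over 10 genes was 25770 to 31070 CPM at E16.5, against 16320 to 20010 CPM at E9.5. The summed level of 7 fibroblast markers, among them Col1a1 and Pdgfra, was 250.2 to 333 CPM at E9.5, then 702 to 875 at E10.5, then 1948 to 2496 at E12.5, then 3148 to 3487 at E14.5, and 4171 to 5156 at E16.5, with 5, 6, 7, 7 and 7 of the 7 genes at a mean over 1 CPM. For 8 epicardial markers, among them Wt1 and Tbx18, the sum was 154 to 210.3, 451 to 532, 438 to 564, 379 to 401 and 355 to 477 CPM at the same stages, with 7, 7, 8, 8 and 8 genes over 1 CPM, and no marker of either list was at 0 throughout a stage. Transcripts of primitive red cells (5 markers) summed to 281 to 577 CPM at E16.5, against 13450 to 43250 CPM at E12.5. Isl1, a marker of second heart field progenitors, averaged 10.9 ± 1.77, 6.81 ± 1.25, 4.55 ± 0.244, 3.07 ± 0.836 and 1.55 ± 0.577 CPM in stage order. In bulk tissue, fewer cells of a type and less RNA per cell cannot be told apart. In 5 libraries (E9.5 replicates 2 and 3, E10.5 replicates 1 and 2, E12.5 replicate 4) the summed level of 8 macrophage-type transcripts was 0.582 to 2.75 CPM, against 341 to 689 CPM in the other 13. Only these sums use plain library totals without TMM scaling. All libraries of E14.5 and E16.5 belong to the 13. Most member fold changes that involve E9.5, E10.5 or E12.5 are therefore also given without the 5 libraries. For several further pathway genes only the fit of all 18 libraries is given, which does not mean that the other value was alike. Leaving out the 5 libraries leaves 1 library at E9.5 that is assumed to vary like the rest. E9.5 replicate 2 held 45.3 CPM of the liver transcript Afp and a summed liver marker level of 58.4 CPM, against at most 4.24 CPM in the other libraries.

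Most of the listed genes changed with stage. By edgeR's quasi-likelihood test over all genes that passed the expression filter, with Benjamini-Hochberg adjustment and a call at an adjusted p under 0.05, 37 of the 39 members that passed the filter differed over the 5 stages, where 71.7% of all 18885 genes tested did. Those outside the threshold were Lrp5 (edgeR adjusted p = 0.0691) and Sfrp4 (edgeR adjusted p = 0.0505). Wnt3, the ligand that the mouse embryo needs at gastrulation, did not pass the filter, with at most 9 counts in a library and no counts in 2 libraries. Of the 37 that passed, the highest stage mean fell at E9.5 for 10, at E10.5 for 5, at E12.5 for 10, at E14.5 for 5 and at E16.5 for 7. Stage means increased at each step for 6 members (Wnt7b, Fzd6, Fzd9, Ror1, Dkk3 and Wif1) and decreased at each step for 8 (Wnt2, Wnt11, Fzd3, Fzd7, Ror2, Rspo3, Lef1 and Tcf7).

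**Figure D1:**
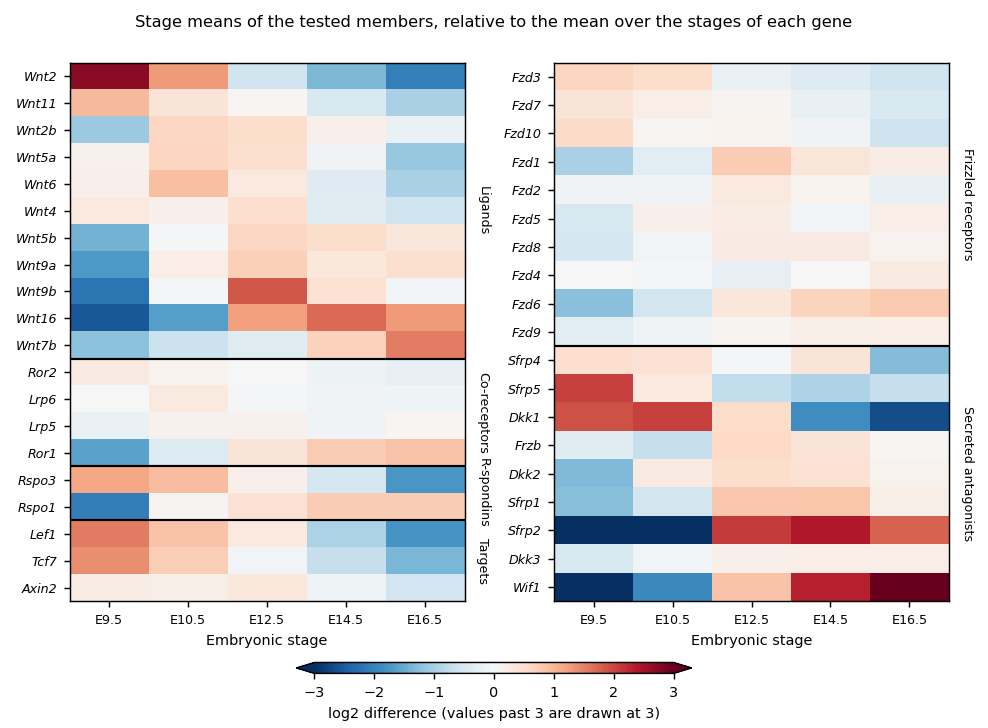
Colours give the log2 stage mean of each of the 39 tested members relative to that gene's mean over the 5 stages (columns), grouped by role, with blue below and red above and values past 3 drawn at 3. Wnt2, Sfrp5, Lef1, Tcf7 and Rspo3 are red at E9.5 and Wif1, Sfrp2, Wnt16 and Ror1 are red at the later stages.

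Fold changes are given as log2 of the later over the earlier stage with an approximate standard error, and stage means with their SD. This standard error was worked back from the test, as the size of the log2 fold change divided by the square root of the F statistic. Between neighbouring stages, calls among the members ran from rises at the early steps to falls at the late ones. At E10.5 against E9.5, 15 members rose and 5 fell (20 of 39), where 18.2% of all genes were called, 10.6% as higher and 7.62% as lower. Without the 5 libraries low in macrophage-type transcripts, 12 rose and 1 fell. At E12.5 against E10.5, 12 rose and 8 fell (20 of 39), beside 38.0% of all genes, 20.0% higher and 18.1% lower, and without the 5 libraries 13 rose and 8 fell. At E14.5 against E12.5 only Fzd6 and Wif1 rose and 10 members fell, beside 14.8% of all genes, 6.29% higher and 8.56% lower, and without the 5 libraries 4 rose and 10 fell. At E16.5 against E14.5 only Wif1 rose and 9 fell, beside 18.9% of all genes, 10.1% higher and 8.74% lower. Scaled by library totals alone, which shifts the median gene of that comparison by -0.13 on the log2 scale, the same comparison called 1 as higher and 15 as lower. Over the whole course, at E16.5 against E9.5, 20 rose and 15 fell (35 of 39), beside 64.9% of all genes, 32.1% higher and 32.8% lower. Without the 5 libraries, 20 rose and 10 fell in that comparison. The shares of all genes come from the fit of all 18 libraries with TMM scaling. Counts without the 5 libraries or by library totals, here and for the further pathway genes below, have no such share beside them. Whether their shifts are particular to these genes cannot be read from them. Comparisons that share a stage share its libraries, so their calls are not independent of each other.

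Among the ligands, Wnt2 had the highest level per kilobase of exon at E9.5 and fell through E12.5. Wnt2 (chr6:17988940-18030585 on GRCm38), a ligand known from the inflow region of the early mouse heart, had 55.0, 71.0 and 94.98 CPM at E9.5, then 25.1, 16.48, 32.5 and 35.5 at E10.5, then 5.95, 8.06, 7.42 and 8.32 at E12.5, then 5.38, 4.27 and 3.49 at E14.5, and 3.07, 1.79, 2.65 and 3.29 at E16.5. Libraries of neighbouring stages did not overlap at any step. At E16.5 the level was 2.70 ± 0.665 CPM, against 73.7 ± 20.1 CPM at E9.5 (log2 fold change -4.77 ± 0.28, edgeR adjusted p = 4.43e-10). Without the 5 libraries the log2 fold change of that comparison was -4.35. The step to E12.5 from E10.5 was also called (log2 fold change -1.88 ± 0.24, edgeR adjusted p = 1.74e-05, and -2.25 without the 5 libraries). The step to E10.5 from E9.5 (log2 fold change -1.43 ± 0.24, edgeR adjusted p = 6.26e-04) was not called without the 5 libraries (-0.69, edgeR adjusted p = 0.102). Its close relative Wnt2b went the other way, with 3.65 ± 0.895 CPM at E9.5, then 12.3 ± 2.35 at E10.5, then 11.5 ± 1.97 at E12.5, then 8.88 ± 1.07 at E14.5, and 6.95 ± 1.76 at E16.5 (SD). Wnt2b rose at E10.5 against E9.5 (log2 fold change 1.75 ± 0.22, edgeR adjusted p = 1.31e-05, and 1.76 without the 5 libraries), and the later steps did not pass the test. Epicardial markers moved at the same step in the fit of all 18 libraries. Of 8 markers, 7 were higher at E10.5 than at E9.5 and 1 lower (beside 10.6% and 7.62% of all genes). Their part in the Wnt2b result was not tested.

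Wnt11 and Wnt5a, ligands of the noncanonical branches that the mouse outflow tract requires, both ended lower at E16.5 than at E9.5. With all libraries, both were called as falling at E14.5 against E12.5 and at E16.5 against E14.5. Wnt11 had 39.6, 51.0 and 69.8 CPM at E9.5, then 33.1, 35.5, 39.9 and 33.6 at E10.5, then 27.3, 24.9, 28.7 and 32.1 at E12.5, then 18.8, 20.5 and 20.2 at E14.5, and 12.9995, 12.3, 13.5 and 16.4 at E16.5. Only E9.5 and E10.5 overlapped among neighbouring stages. Its level at E16.5 was lower than at E9.5 (log2 fold change -1.96 ± 0.14, edgeR adjusted p = 7.85e-10, and -1.52 without the 5 libraries). The smaller steps were less stable. The fall at E10.5 against E9.5 (log2 fold change -0.59 ± 0.14, edgeR adjusted p = 0.00602) was -0.10 without the 5 libraries and -0.35 without E9.5 replicate 3, and neither was called. The fall at E14.5 against E12.5 (log2 fold change -0.51 ± 0.15, edgeR adjusted p = 0.0226) was not called when E12.5 replicate 4 or any 1 of the E14.5 libraries was left out (-0.53 to -0.44), although it was called without the 5 libraries (-0.44). The one at E16.5 against E14.5 (log2 fold change -0.53 ± 0.15, edgeR adjusted p = 0.0161) was not called without E14.5 replicate 2 (-0.50). Of the 6 outflow and second heart field markers, none at 0 throughout a stage, 5 were lower and none higher at E16.5 than at E9.5. Beside them, 32.8% of all genes were lower and 32.1% higher. The summed level of these markers was 239 to 261 CPM at E16.5 and 343 to 434 CPM at E9.5. Their part in the Wnt11 result was not tested.

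Wnt5a averaged 77.0 ± 4.14 CPM at E9.5, then 109.6 ± 13.1 at E10.5, then 99.0 ± 13.2 at E12.5, then 65.6 ± 1.81 at E14.5, and 32.0 ± 2.87 at E16.5 (SD). Its main falls came late, at E14.5 against E12.5 (log2 fold change -0.59 ± 0.10, edgeR adjusted p = 5.14e-04, and -0.50 without the 5 libraries) and at E16.5 against E14.5 (log2 fold change -1.04 ± 0.10, edgeR adjusted p = 1.07e-06). In the second of these steps the E16.5 libraries held 29.1, 30.1, 35.0 and 33.9 CPM, against 67.5, 65.5 and 63.9 CPM at E14.5, with no overlap. The rise at E10.5 against E9.5 (log2 fold change 0.51 ± 0.10, edgeR adjusted p = 0.00152) was not called without the 5 libraries (0.42). Wnt5b, the paralogue of Wnt5a, had 3.71, 2.99 and 2.99 CPM at E9.5, then 8.37, 9.02, 8.64 and 6.93 at E10.5, then 11.9, 13.8, 14.1 and 13.6 at E12.5, then 11.8, 12.53 and 12.8 at E14.5, and 11.1, 9.79, 10.3 and 12.4 at E16.5. It rose at E10.5 against E9.5 (log2 fold change 1.35 ± 0.12, edgeR adjusted p = 4.68e-07, and 1.07 without the 5 libraries) and again at E12.5 against E10.5 (log2 fold change 0.70 ± 0.10, edgeR adjusted p = 3.48e-05, and 0.77 without the 5 libraries). The later steps did not pass the test. All E16.5 libraries lay above all E9.5 libraries. At E16.5 the mean Wnt5b level was 10.9 ± 1.15 CPM, against 3.23 ± 0.420 CPM at E9.5 (log2 fold change 1.75 ± 0.12, edgeR adjusted p = 2.53e-10, and 1.56 without the 5 libraries). The Wnt5a change in that comparison (log2 fold change -1.27 ± 0.10, edgeR adjusted p = 1.75e-09, and -1.22 without the 5 libraries) ran the other way.

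Of the remaining ligands, Wnt9b, Wnt9a, Wnt16 and Wnt7b were higher at E16.5 than at E9.5. Wnt9b (chr11:103727364-103749821 on GRCm38), a ligand known from endocardial cells of the mouse heart valves, had 0.423, 0.584 and 0.830 CPM at E9.5, then 3.54, 3.22, 2.12 and 2.07 at E10.5, then 9.73, 10.7, 10.2 and 10.1 at E12.5, then 4.34, 2.86 and 4.30 at E14.5, and 2.24, 1.43, 3.95 and 2.93 at E16.5. The E12.5 libraries stood above every library of the other stages. It rose at E10.5 against E9.5 (log2 fold change 2.16 ± 0.32, edgeR adjusted p = 8.92e-05, and 2.31 without the 5 libraries) and at E12.5 against E10.5 (log2 fold change 1.89 ± 0.25, edgeR adjusted p = 1.05e-05, and 2.28 without the 5 libraries). Wnt9b then fell at E14.5 against E12.5 (log2 fold change -1.41 ± 0.28, edgeR adjusted p = 0.00157, and -1.42 without the 5 libraries). Its paralogue Wnt9a, known from joint formation in the mouse, had 1.27, 2.79 and 0.697 CPM at E9.5, then 6.65, 6.83, 5.33 and 5.06 at E10.5, then 7.02, 8.43, 10.01 and 9.03 at E12.5, then 7.01, 6.35 and 6.32 at E14.5, and 6.12, 6.61, 8.11 and 8.40 at E16.5. Wnt9a rose at E10.5 against E9.5 (log2 fold change 1.91 ± 0.29, edgeR adjusted p = 1.51e-04, and 2.04 without the 5 libraries), a change of 2.59 without E9.5 replicate 2, and the later steps did not pass. At E16.5 against E9.5 its change (log2 fold change 2.202 ± 0.30, edgeR adjusted p = 3.05e-06, and 2.53 without the 5 libraries) was 2.88 without that library. The 7 cushion and valve mesenchyme markers summed to 1401 to 1692 CPM at E9.5, then 1539 to 1845 at E10.5 and 1015 to 1239 at E12.5. Their sum was 751 to 999 CPM at E14.5 and 747 to 1021 CPM at E16.5. The part of these markers in the Wnt9b and Wnt9a results was not tested.

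Wnt16, a ligand known from cortical bone in the mouse, came up between E10.5 and E12.5. It had 0.211, 0.325 and 0.166 CPM at E9.5, then 0.309, 0.457, 0.557 and 0.393 at E10.5, then 4.06, 2.92, 2.61 and 3.04 at E12.5, then 4.91, 4.32 and 3.96 at E14.5, and 3.17, 3.18, 4.23 and 2.48 at E16.5. The libraries of E9.5 and E10.5 overlapped and all lay below every later library. The step was called (log2 fold change 2.87 ± 0.23, edgeR adjusted p = 1.81e-08, and 2.74 without the 5 libraries), with a mean of 3.16 ± 0.628 CPM at E12.5, against 0.429 ± 0.104 CPM at E10.5. Wnt7b, a ligand of lung epithelium and other epithelia, stood at 0.278 ± 0.283 CPM at E9.5, then 0.416 ± 0.218 at E10.5, then 0.503 ± 0.188 at E12.5, then 1.04 ± 0.364 at E14.5, and 1.87 ± 0.453 at E16.5 (SD), on 533 counts over all 18 libraries. It was higher at E16.5 than at E9.5 (log2 fold change 2.71 ± 0.52, edgeR adjusted p = 1.31e-04), by 3.99 without E9.5 replicate 1 and by 1.63 without the 5 libraries. Among the E16.5 libraries, replicate 4 had the most Wnt7b (2.51 CPM, against 1.70, 1.81 and 1.45 CPM in replicates 1 to 3), and it also held 4.30 CPM of the lung epithelial transcript Sftpc and 0.912 CPM of Nkx2-1. Sftpc had no counts in any library of E9.5 or E12.5, where a count of 0 allows up to 0.0657 to 0.0969 CPM a library. Over the 5 lung markers, which include Id2 and Etv5 of wide expression, the sum was 78.6 to 92.8 CPM at E16.5 and 229 to 261 CPM at E9.5, with 3 and 2 genes over 1 CPM. The part of these transcripts in the Wnt7b result was not tested.

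Wnt4, known from kidney and ovary in the mouse, averaged 13.7 ± 2.14 CPM at E9.5, then 12.3 ± 3.40 at E10.5, then 15.9 ± 3.89 at E12.5, then 8.68 ± 0.899 at E14.5, and 7.29 ± 1.06 at E16.5 (SD). It fell at E14.5 against E12.5 (log2 fold change -0.87 ± 0.21, edgeR adjusted p = 0.00938, and -1.01 without the 5 libraries), and this call was lost without E14.5 replicate 2 (-0.80). At E16.5 it was lower than at E9.5 (log2 fold change -0.91 ± 0.21, edgeR adjusted p = 0.00105, and -1.14 without the 5 libraries). Wnt6 stayed at or under 1.39 CPM in the E10.5 libraries, its highest stage by mean, with 293 counts over all libraries. It passed over the 5 stages (edgeR adjusted p = 0.0405) but in no comparison of 2 stages.

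**Figure D2:**
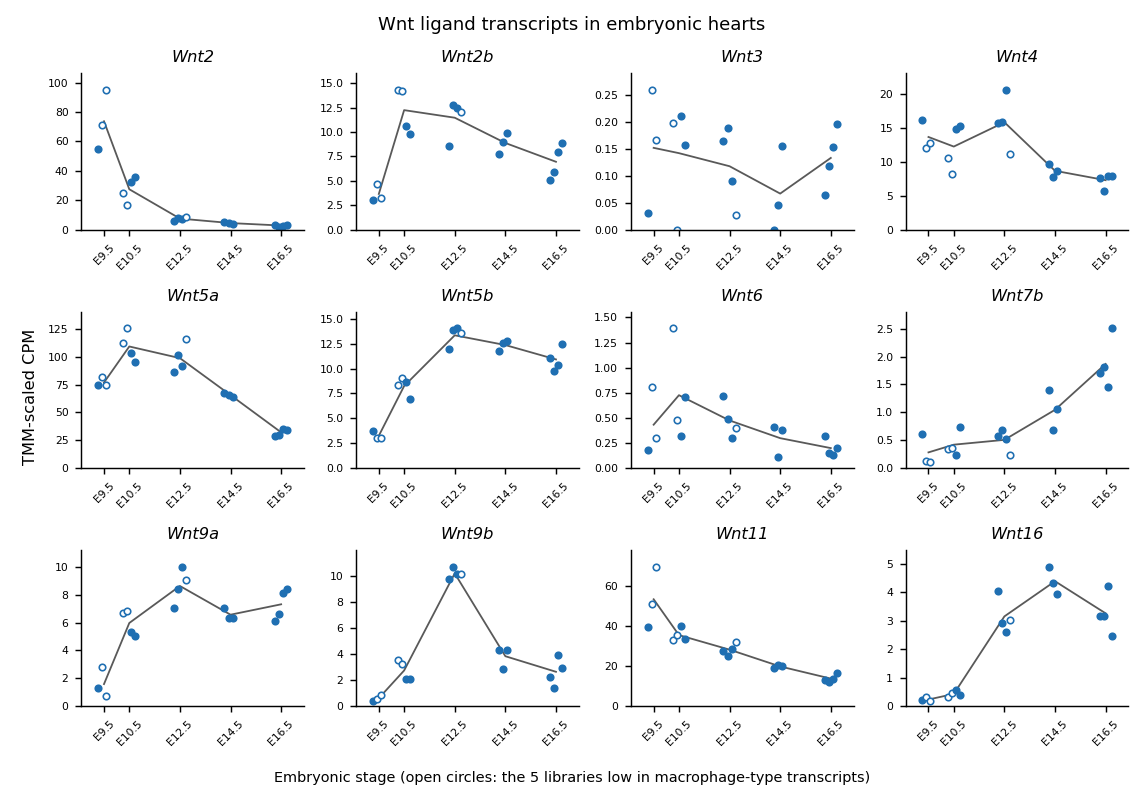
Each panel gives TMM-scaled CPM of 1 Wnt ligand by embryonic stage, with a point for each of the 18 libraries, open circles for the 5 libraries low in macrophage-type transcripts, and a line through the stage means. Wnt2 and Wnt11 decline from E9.5, Wnt9b peaks at E12.5 and Wnt16 stands low until E10.5.

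Divided by exon length, the mix of ligand transcripts changed from one dominated by Wnt2 to one shared by several ligands. The summed level of the 12 ligands was 61.8 ± 11.9 CPM per kilobase at E9.5, then 46.6 ± 2.16 at E10.5, then 40.3 ± 2.81 at E12.5, then 28.2 ± 0.580 at E14.5, and 20.2 ± 2.34 at E16.5 (SD over libraries). Of this sum Wnt2 made up 5.90% ± 1.14 at E16.5, against 52.4% ± 4.19 at E9.5. Wnt5a made up 16.4%, 30.2%, 31.4%, 29.8% and 20.4% in stage order and held the first rank from E10.5 to E14.5. Wnt5b held 20.5% ± 1.56 at E16.5, beside Wnt5a at 20.4% ± 1.34, against 2.05% ± 0.656 at E9.5. Wnt11 held 16.52% at E16.5, against 20.7% at E9.5, although its level fell. These shares are descriptions per library and carry no test, and they assume that the annotated exons are those used in the heart.

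**Figure D3:**
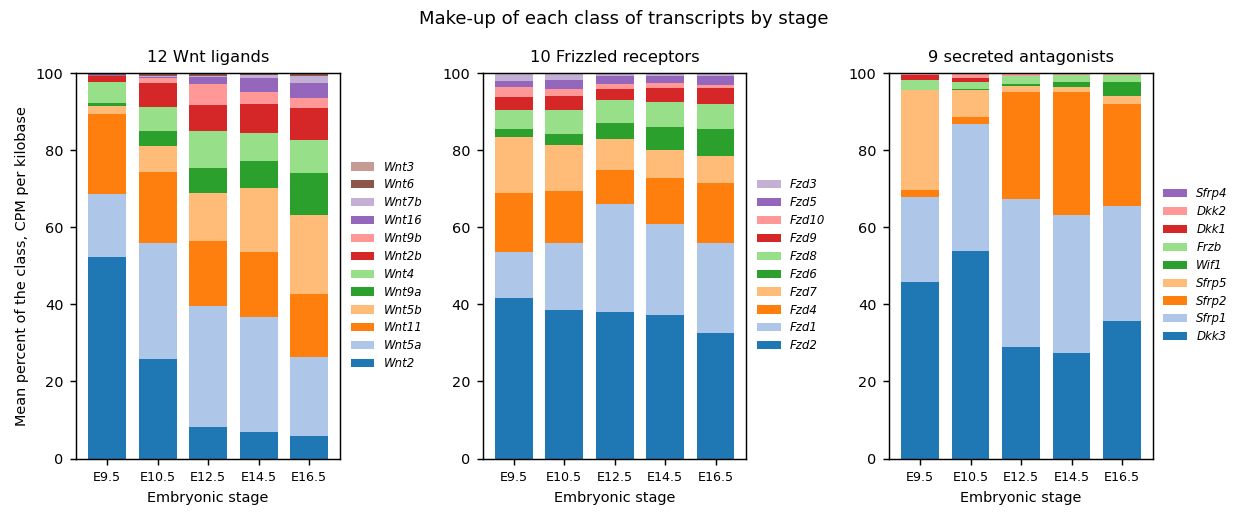
Stacked bars give the mean share, in percent of CPM per kilobase, that each gene contributed to its class (ligands, Frizzled receptors, secreted antagonists) at each stage. Wnt2 holds 5.90% of the ligand sum at E16.5, against 52.4% at E9.5, and Sfrp2 enters the antagonist sum from E12.5.

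The Frizzled receptors, the membrane receptors that bind Wnt ligands, varied less than the ligands. Fzd6 and Fzd1 carried the largest changes among them. Fzd6, a receptor known from planar cell polarity in mouse skin and hair, had 6.61, 6.95 and 6.21 CPM at E9.5, then 10.8, 11.4, 10.2 and 10.3 at E10.5, then 19.4, 18.1, 18.6 and 22.4 at E12.5, then 25.3, 23.0 and 26.3 at E14.5, and 23.5, 26.4, 30.0 and 28.2 at E16.5. Neighbouring stages did not overlap up to E14.5. It rose at E10.5 against E9.5 (log2 fold change 0.69 ± 0.10, edgeR adjusted p = 5.68e-05, and 0.63 without the 5 libraries), at E12.5 against E10.5 (log2 fold change 0.88 ± 0.09, edgeR adjusted p = 2.36e-07, and 0.87 without the 5 libraries) and at E14.5 against E12.5 (log2 fold change 0.34 ± 0.09, edgeR adjusted p = 0.0159, and 0.41 without the 5 libraries). The last of these was not called without E12.5 replicate 2 (0.31) or E14.5 replicate 3 (0.30). The mean at E16.5 was 27.0 ± 2.78 CPM, against 6.59 ± 0.368 CPM at E9.5 (log2 fold change 2.04 ± 0.10, edgeR adjusted p = 1.71e-12, and 2.03 without the 5 libraries). Fzd3, which shares the planar polarity role, averaged 18.1 ± 8.09 CPM at E9.5, then 16.7 ± 3.09 at E10.5, then 9.99 ± 2.63 at E12.5, then 8.78 ± 0.259 at E14.5, and 7.62 ± 1.46 at E16.5 (SD). At E9.5 replicates 2 and 3, both among the 5 libraries, had 22.5 and 23.0 CPM and replicate 1 had 8.76 CPM. The fall of Fzd3 at E16.5 against E9.5 (log2 fold change -1.25 ± 0.28, edgeR adjusted p = 9.94e-04) was -0.20 without the 5 libraries and no longer called. Its fall at E12.5 against E10.5 (log2 fold change -0.74 ± 0.26, edgeR adjusted p = 0.0333, and -0.63 without the 5 libraries) was not called when E10.5 replicate 1 or 2, or E12.5 replicate 1 or 3, was left out (-0.68 to -0.62).

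Fzd1, Fzd2 and Fzd7 form a closely related group of receptors, and each moved in its own way. Fzd1 averaged 34.9 ± 6.65 CPM at E9.5, then 53.9 ± 6.03 at E10.5, then 116 ± 11.9 at E12.5, then 87.8 ± 5.71 at E14.5, and 79.6 ± 5.50 at E16.5 (SD). It rose at E10.5 against E9.5 (log2 fold change 0.63 ± 0.12, edgeR adjusted p = 7.31e-04, and 0.85 without the 5 libraries) and at E12.5 against E10.5 (log2 fold change 1.10 ± 0.11, edgeR adjusted p = 1.50e-07, and 1.17 without the 5 libraries). The fall at E14.5 against E12.5 (log2 fold change -0.40 ± 0.11, edgeR adjusted p = 0.0226) was not called without E12.5 replicate 4 (-0.32), E14.5 replicate 1 (-0.39) or E14.5 replicate 2 (-0.35), and not with the replicate number as a block, although it was called without the 5 libraries (-0.32). Fzd2 averaged 104 ± 6.96 CPM at E9.5, then 104 ± 3.91 at E10.5, then 137 ± 3.37 at E12.5, then 121 ± 11.0 at E14.5, and 95.8 ± 6.68 at E16.5 (SD). It rose at E12.5 against E10.5 (log2 fold change 0.41 ± 0.07, edgeR adjusted p = 9.93e-05, and 0.38 without the 5 libraries) and fell at E16.5 against E14.5 (log2 fold change -0.33 ± 0.07, edgeR adjusted p = 0.00306). Its level at E16.5 was not distinguishable from that at E9.5 (log2 fold change -0.12 ± 0.07, edgeR adjusted p = 0.153, and also not called without the 5 libraries). Fzd7 averaged 45.6 ± 7.27 CPM at E9.5, then 39.5 ± 5.75 at E10.5, then 36.4 ± 4.23 at E12.5, then 29.8 ± 7.61 at E14.5, and 25.3 ± 3.59 at E16.5 (SD), with no neighbouring step past the threshold. Its level was lower at E16.5 than at E9.5 (log2 fold change -0.85 ± 0.17, edgeR adjusted p = 2.52e-04), a difference that was -0.56 without the 5 libraries (edgeR adjusted p = 0.0535).

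Fzd5 and Fzd8, another related pair, rose at E10.5 against E9.5, Fzd5 by 0.62 ± 0.15 and Fzd8 by 0.47 ± 0.10 on the log2 scale (edgeR adjusted p = 0.00692 and 0.00193). Neither call held without the 5 libraries (log2 fold changes 0.68 and 0.48). Both were higher at E16.5 than at E9.5 with or without these libraries, Fzd5 with 12.6 ± 0.728 CPM at E16.5 and 7.88 ± 0.871 at E9.5, and Fzd8 with 31.2 ± 3.21 CPM at E16.5 and 20.1 ± 1.01 at E9.5. Fzd4, the Norrin receptor of the mouse retinal vasculature, averaged 70.2 ± 15.0 CPM at E9.5, then 66.8 ± 4.92 at E10.5, then 58.3 ± 5.90 at E12.5, then 69.5 ± 2.48 at E14.5, and 83.9 ± 3.66 at E16.5 (SD). Its change at E16.5 against E9.5 (log2 fold change 0.26 ± 0.11, edgeR adjusted p = 0.0486, 0.66 without the 5 libraries) lost its call when any of 12 single libraries was left out (0.10 to 0.26) and with the replicate number as a block. Fzd9 was higher at E16.5 than at E9.5 (log2 fold change 0.55 ± 0.14, edgeR adjusted p = 0.00233), but not past the threshold without the 5 libraries (0.35). Fzd10 was lower (log2 fold change -1.19 ± 0.21, edgeR adjusted p = 6.04e-05, and -1.10 without the 5 libraries), with 2.48 ± 0.557 CPM at E16.5 and 5.66 ± 0.605 CPM at E9.5.

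Per kilobase of exon, Fzd2 led the Frizzled class at every stage, with 41.7%, 38.5%, 38.1%, 37.3% and 32.5% of the class sum in stage order. Fzd1 went alongside it with 12.1% at E9.5, 27.9% at E12.5 and 23.6% at E16.5. Fzd4 held 15.5% at E16.5, against 15.1% at E9.5, with its lowest share, 8.80%, at E12.5. The class sum was 68.5 ± 7.84 CPM per kilobase at E9.5, then 73.6 ± 2.82 at E10.5, then 98.5 ± 5.47 at E12.5, then 88.3 ± 3.55 at E14.5, and 80.5 ± 2.56 at E16.5. By this measure the ligand sum at E16.5 was below its own E9.5 level while the receptor sum was not.

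Of the co-receptors, Ror1, which like Ror2 is a kinase receptor for Wnt5a, changed the most. The courses of Ror2 and of the canonical pair Lrp5 and Lrp6 depended on the 5 libraries low in macrophage-type transcripts. Without these libraries Lrp5 and Lrp6 were higher at E10.5 than at E9.5, as given below. Ror1 had 6.76, 9.35 and 4.25 CPM at E9.5, then 17.3, 18.3, 12.7 and 13.4 at E10.5, then 27.1, 27.7, 24.9 and 28.9 at E12.5, then 35.2, 37.3 and 32.1 at E14.5, and 34.0, 43.1, 37.6 and 35.4 at E16.5. Stages up to E14.5 did not overlap with their neighbours. Ror1 rose at E10.5 against E9.5 (log2 fold change 1.19 ± 0.19, edgeR adjusted p = 2.31e-04, and 0.96 without the 5 libraries) and at E12.5 against E10.5 (log2 fold change 0.81 ± 0.16, edgeR adjusted p = 7.07e-04, and 1.02 without the 5 libraries). At E16.5 Ror1 averaged 37.5 ± 4.02 CPM, against 6.79 ± 2.55 CPM at E9.5 (log2 fold change 2.47 ± 0.19, edgeR adjusted p = 3.58e-09, and 2.48 without the 5 libraries). Ror2 averaged 69.2 ± 12.6 CPM at E9.5, then 61.3 ± 3.95 at E10.5, then 58.2 ± 5.65 at E12.5, then 51.9 ± 1.71 at E14.5, and 48.7 ± 2.44 at E16.5 (SD). Its fall at E16.5 against E9.5 (log2 fold change -0.51 ± 0.10, edgeR adjusted p = 1.81e-04) was -0.17 without the 5 libraries and not called. Lrp5 averaged 69.7 ± 15.4 CPM at E9.5, then 87.3 ± 8.66 at E10.5, then 88.0 ± 9.66 at E12.5, then 74.1 ± 3.80 at E14.5, and 84.0 ± 6.90 at E16.5 (SD), with no comparison past the threshold. Without the 5 libraries, Lrp5 was called as higher at E16.5 than at E9.5 (0.70, edgeR adjusted p = 4.46e-05). Lrp6 averaged 96.5 ± 21.9 CPM at E9.5, then 118 ± 11.1 at E10.5, then 91.9 ± 10.47 at E12.5, then 89.4 ± 4.74 at E14.5, and 87.9 ± 8.41 at E16.5 (SD). It fell at E12.5 against E10.5 (log2 fold change -0.36 ± 0.12, edgeR adjusted p = 0.0205), a call lost without the 5 libraries (-0.28) or without E10.5 replicate 1 or 2 or E12.5 replicate 1 or 3 (-0.32 to -0.31).

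**Figure D4:**
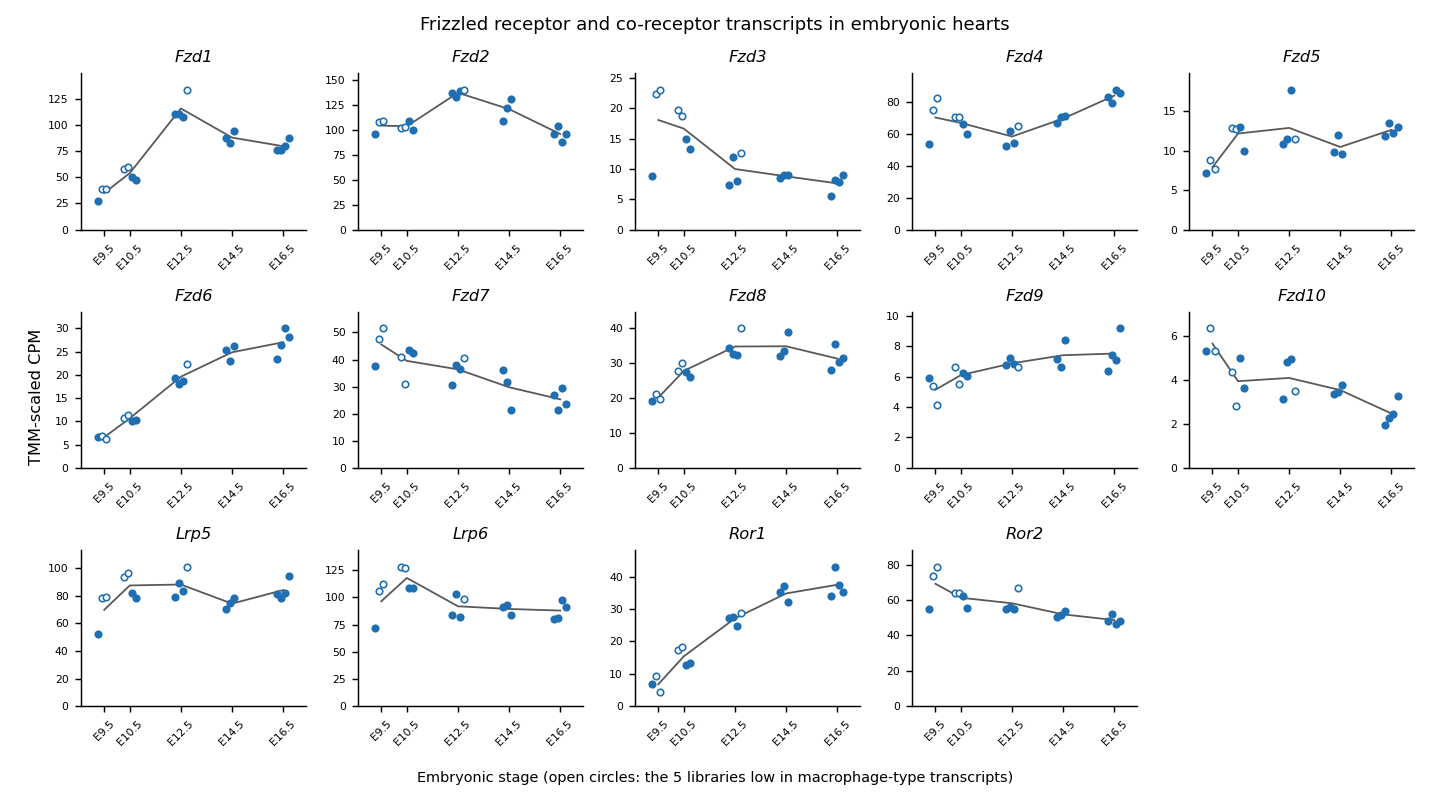
Panels give TMM-scaled CPM of the 10 Frizzled receptors and the 4 co-receptors by embryonic stage, 1 point a library, with open circles for the 5 libraries low in macrophage-type transcripts and a line through the stage means. Ror1 and Fzd6 increase at each step, and the open circles stand above the filled ones of their stage for Fzd1, Lrp5 and Lrp6 at E9.5.

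The secreted antagonists held the largest fold change among the tested members. Wif1 (chr10:121033960-121100650 on GRCm38), which binds Wnt ligands directly, had 0.0906, 0.0649 and 0 CPM at E9.5, then 0.287, 0.313, 0.292 and 0.498 at E10.5, then 2.47, 2.49, 2.70 and 1.87 at E12.5, then 6.33, 6.69 and 7.13 at E14.5, and 18.1, 15.4, 11.0 and 12.7 at E16.5. Each stage lay wholly above the one before it. The 4 libraries of E16.5 held 1827 Wif1 reads, against 5 in the 3 libraries of E9.5, 1 of which had none (a count of 0 allows up to 0.0969 CPM there). The ratio of those counts, scaled for depth, was 268.5 with a 95% counting interval of 114.9 to 828.1 that covers counting error only. All 4 neighbouring steps were called, at E10.5 against E9.5 (log2 fold change 2.63 ± 0.46, edgeR adjusted p = 4.54e-04), at E12.5 against E10.5 (log2 fold change 2.77 ± 0.25, edgeR adjusted p = 5.04e-08, and 2.68 without the 5 libraries), at E14.5 against E12.5 (log2 fold change 1.49 ± 0.22, edgeR adjusted p = 9.18e-05, and 1.39 without the 5 libraries) and at E16.5 against E14.5 (log2 fold change 1.09 ± 0.22, edgeR adjusted p = 0.00153). The first of these was 2.09 without the 5 libraries (edgeR adjusted p = 0.0883) and 3.28 without E9.5 replicate 1.

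Secreted Frizzled-related proteins, which carry a Frizzled-like domain and bind Wnts outside the cell, moved in opposite directions. Sfrp2 (chr3:83766321-83774316 on GRCm38) had 2.75, 3.15 and 2.62 CPM at E9.5, then 2.76, 1.52, 4.48 and 3.96 at E10.5, then 154, 95.9, 101 and 101 at E12.5, then 149.7, 140.5 and 133 at E14.5, and 109, 95.4, 95.5 and 61.3 at E16.5. No library of E12.5 or later overlapped with one of E9.5 or E10.5. The step at E12.5 against E10.5 was the largest of any neighbouring step among the members (log2 fold change 5.16 ± 0.28, edgeR adjusted p = 3.64e-09, and 4.79 without the 5 libraries). Sfrp1 had 62.2, 84.2 and 77.0 CPM at E9.5, then 131, 117, 122 and 122 at E10.5, then 312, 319, 320.5 and 305 at E12.5, then 323, 311 and 326 at E14.5, and 202, 183, 216 and 219.7 at E16.5. It rose at E10.5 against E9.5 (log2 fold change 0.73 ± 0.09, edgeR adjusted p = 8.29e-06, and 0.98 without the 5 libraries) and at E12.5 against E10.5 (log2 fold change 1.35 ± 0.08, edgeR adjusted p = 2.78e-10, and 1.37 without the 5 libraries). Sfrp1 then fell at E16.5 against E14.5 (log2 fold change -0.64 ± 0.08, edgeR adjusted p = 2.81e-05). Its E16.5 libraries still lay above all those of E9.5 and E10.5. In Sfrp5, a marker of the mouse venous pole, the course was the reverse, with 26.5, 40.1 and 48.5 CPM at E9.5, then 10.9, 8.06, 14.9 and 11.3 at E10.5, then 4.61, 5.97, 5.45 and 6.18 at E12.5, then 4.03, 4.30 and 6.14 at E14.5, and 6.15, 5.33, 5.34 and 6.22 at E16.5. Sfrp5 fell at E10.5 against E9.5 (log2 fold change -1.77 ± 0.20, edgeR adjusted p = 7.09e-06, and -1.01 without the 5 libraries) and at E12.5 against E10.5 (log2 fold change -1.02 ± 0.19, edgeR adjusted p = 4.21e-04, and -1.29 without the 5 libraries). Its libraries of E12.5 to E16.5 overlapped.

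Fibroblast markers moved in the same direction as Sfrp1 and Sfrp2 at E12.5 against E10.5, where 7 of 7 were higher (beside 20.0% of all genes). At E16.5 against E14.5, 4 of the 7 were higher and 1 lower (beside 10.1% and 8.74% of all genes), while Sfrp1 fell. Mean Sfrp2 was 90.2 CPM at E16.5, against 141 CPM at E14.5. The part of these markers in the results was not tested. Frzb, a further member of the family, averaged 6.56 ± 1.37 CPM at E9.5, then 5.20 ± 0.252 at E10.5, then 12.8 ± 0.742 at E12.5, then 11.0 ± 2.29 at E14.5, and 8.71 ± 0.983 at E16.5 (SD). Frzb rose at E12.5 against E10.5 (log2 fold change 1.30 ± 0.13, edgeR adjusted p = 3.19e-07, and 1.27 without the 5 libraries). Its call at E16.5 against E9.5 (log2 fold change 0.41 ± 0.14, edgeR adjusted p = 0.0179, and 0.64 without the 5 libraries) was lost without E9.5 replicate 1 (0.32) or replicate 2 (0.34). Sfrp4 stood at 0.102 CPM at E16.5, against 0.354 CPM at E9.5, on 176 counts over all libraries. Its calls, at E16.5 against E14.5 (log2 fold change -1.64 ± 0.57, edgeR adjusted p = 0.0494) and at E16.5 against E9.5 (log2 fold change -1.76 ± 0.58, edgeR adjusted p = 0.0116), did not hold. The first was lost when any of 14 single libraries was left out (-1.64 to -1.34) and with the replicate number as a block, and the second without E9.5 replicate 2 (-1.10) or without the 5 libraries (-0.81).

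Dickkopf proteins, of which Dkk1 and Dkk2 bind Lrp5 and Lrp6, also split. Dkk1 averaged 2.22 ± 0.627 CPM at E9.5, then 2.45 ± 0.535 at E10.5, then 0.860 ± 0.363 at E12.5, then 0.163 ± 0.0720 at E14.5, and 0.0929 ± 0.0403 at E16.5 (SD). It fell at E12.5 against E10.5 (log2 fold change -1.50 ± 0.29, edgeR adjusted p = 4.81e-04, and -1.14 without the 5 libraries) and at E14.5 against E12.5 (log2 fold change -2.36 ± 0.39, edgeR adjusted p = 3.84e-04, and -2.46 without the 5 libraries). The E16.5 libraries held 12 Dkk1 reads and the E9.5 libraries 207, a depth-scaled ratio of 0.0426 with a 95% counting interval of 0.0217 to 0.0760 (log2 fold change -4.52 ± 0.40, edgeR adjusted p = 7.37e-09, and -3.96 without the 5 libraries). Dkk2 averaged 1.10 ± 0.379 CPM at E9.5, then 3.35 ± 0.705 at E10.5, then 3.97 ± 0.648 at E12.5, then 3.75 ± 0.192 at E14.5, and 2.99 ± 0.278 at E16.5 (SD). Dkk2 rose at E10.5 against E9.5 (log2 fold change 1.60 ± 0.23, edgeR adjusted p = 5.49e-05, and 1.27 without the 5 libraries). Dkk3, a divergent family member, averaged 117 ± 1.71 CPM at E9.5, then 155 ± 16.9 at E10.5, then 181 ± 21.7 at E12.5, then 189 ± 17.7 at E14.5, and 189 ± 21.6 at E16.5 (SD). It was higher at E16.5 than at E9.5 (log2 fold change 0.69 ± 0.11, edgeR adjusted p = 1.16e-05, and 0.71 without the 5 libraries), whereas its call at E10.5 against E9.5 (log2 fold change 0.41 ± 0.11, edgeR adjusted p = 0.0104) was lost without them (0.28).

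**Figure D5:**
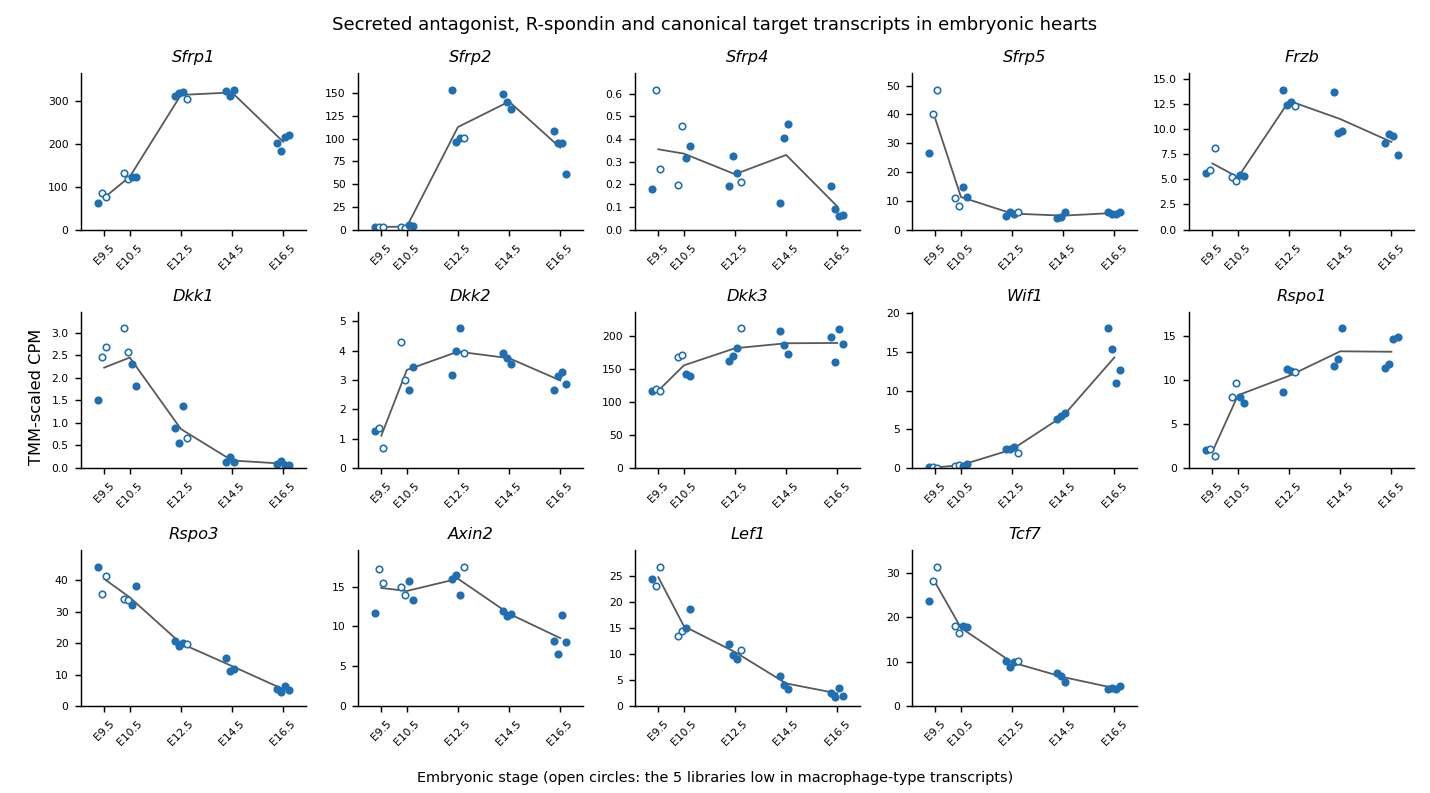
Panels give TMM-scaled CPM of the secreted antagonists, the R-spondins and the canonical transcripts by embryonic stage, 1 point a library, with open circles for the 5 libraries low in macrophage-type transcripts and a line through the stage means. Wif1 climbs at every step, Sfrp2 stands near 0 until E10.5, and Sfrp5, Rspo3, Lef1 and Tcf7 are highest at E9.5.

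Per kilobase of exon, the summed antagonist level was 76.7 ± 8.65 CPM at E9.5, then 85.6 ± 4.38 at E10.5, then 188 ± 9.63 at E12.5, then 205 ± 9.36 at E14.5, and 158 ± 12.9 at E16.5 (SD over libraries). Dkk3 made up 35.7% ± 2.60 of it at E16.5, against 45.8% ± 5.30 at E9.5, the first rank at both. Sfrp5 went from rank 2 at E9.5 to rank 5 at E16.5, and Sfrp2 from rank 5 to rank 3. Sfrp5 held 1.93% ± 0.233 at E16.5, against 26.0% ± 5.01 at E9.5, and Sfrp2 held 26.5% ± 4.93 at E16.5, against 1.73% ± 0.230 at E9.5. Sfrp1 was the largest contributor at E12.5, with 38.4% ± 2.54, and at E14.5, with 35.8% ± 1.69.

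The R-spondins, secreted agonists that act through Lgr receptors and raise Frizzled at the cell surface, ran in opposite directions. Rspo3, which the mouse needs for placental and coronary vessels, had 44.3, 35.6 and 41.3 CPM at E9.5, then 34.2, 33.7, 32.3 and 38.0 at E10.5, then 20.7, 19.2, 19.9 and 19.9 at E12.5, then 15.2, 11.3 and 11.7 at E14.5, and 5.48, 4.58, 6.45 and 5.11 at E16.5. Each stage after E10.5 lay wholly below the one before it. Rspo3 fell at E12.5 against E10.5 (log2 fold change -0.79 ± 0.10, edgeR adjusted p = 5.81e-06, and -0.82 without the 5 libraries), at E14.5 against E12.5 (log2 fold change -0.65 ± 0.11, edgeR adjusted p = 5.81e-04, and -0.65 without the 5 libraries) and at E16.5 against E14.5 (log2 fold change -1.24 ± 0.12, edgeR adjusted p = 7.51e-07). The mean at E16.5 was 5.40 ± 0.786 CPM, against 40.4 ± 4.40 CPM at E9.5 (log2 fold change -2.90 ± 0.12, edgeR adjusted p = 8.86e-14, and -3.03 without the 5 libraries). Rspo1 had 1.99, 2.17 and 1.39 CPM at E9.5, then 7.999, 9.65, 8.06 and 7.32 at E10.5, then 8.64, 11.2, 11.0 and 10.9 at E12.5, then 11.5, 12.3 and 15.9 at E14.5, and 11.4, 11.8, 14.7 and 14.9 at E16.5. All libraries from E10.5 on lay above the E9.5 libraries. It rose at E10.5 against E9.5 (log2 fold change 2.15 ± 0.17, edgeR adjusted p = 1.21e-07, and 1.95 without the 5 libraries), the step at which epicardial markers rose as given for Wnt2b, and no later step passed the test. Over the course, Rspo1 averaged 13.2 ± 1.87 CPM at E16.5, against 1.85 ± 0.408 CPM at E9.5 (log2 fold change 2.83 ± 0.18, edgeR adjusted p = 4.41e-11, and 2.73 without the 5 libraries).

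The 3 member transcripts read for canonical signalling declined, by different amounts. The 10 tested further feedback targets of the canonical branch moved both ways. At E16.5 against E9.5, 4 rose and 2 fell (60%, beside 64.9% of all genes). At E12.5 against E10.5, 5 rose and 2 fell (70%, beside 38.0%). At E14.5 against E12.5, none rose and 5 fell (50%, beside 14.8%). They include Notum and Ccnd1, whose values are given below. Lef1, a nuclear partner of beta-catenin and itself a target in many tissues, had 24.4, 23.0 and 26.8 CPM at E9.5, then 13.4, 14.4, 14.9 and 18.7 at E10.5, then 11.9, 9.81, 9.13 and 10.7 at E12.5, then 5.88, 3.98 and 3.24 at E14.5, and 2.56, 1.84, 3.55 and 1.86 at E16.5. Up to E14.5 neighbouring stages did not overlap. It fell at E14.5 against E12.5 (log2 fold change -1.24 ± 0.21, edgeR adjusted p = 4.22e-04, and -1.23 without the 5 libraries). Over the course Lef1 fell to 2.45 ± 0.803 CPM at E16.5, against 24.7 ± 1.89 CPM at E9.5 (log2 fold change -3.33 ± 0.21, edgeR adjusted p = 1.05e-10, and -3.31 without the 5 libraries). The other Lef1 steps were called but depended on single libraries. At E10.5 against E9.5 (log2 fold change -0.69 ± 0.19, edgeR adjusted p = 0.0167) the call was lost without the 5 libraries (-0.53), without E9.5 replicate 3 (-0.63) or without E10.5 replicate 1 (-0.63). At E12.5 against E10.5 (log2 fold change -0.56 ± 0.18, edgeR adjusted p = 0.0190, and -0.71 without the 5 libraries) it was lost without E10.5 replicate 4 (-0.46) or E12.5 replicate 3 (-0.51), and at E16.5 against E14.5 (log2 fold change -0.84 ± 0.21, edgeR adjusted p = 0.0100) without E14.5 replicate 1 (-0.56).

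Tcf7, the related factor, had 23.7, 28.1 and 31.4 CPM at E9.5, then 18.01, 16.501, 18.1 and 17.8 at E10.5, then 10.3, 8.89, 10.01 and 10.3 at E12.5, then 7.44, 6.85 and 5.36 at E14.5, and 3.78, 4.08, 3.95 and 4.49 at E16.5. Libraries of neighbouring stages did not overlap at any step. It fell at all 4 steps, at E10.5 against E9.5 (log2 fold change -0.66 ± 0.11, edgeR adjusted p = 2.55e-04), at E12.5 against E10.5 (log2 fold change -0.84 ± 0.10, edgeR adjusted p = 3.48e-06, and -0.89 without the 5 libraries), at E14.5 against E12.5 (log2 fold change -0.59 ± 0.11, edgeR adjusted p = 0.00154, and -0.56 without the 5 libraries) and at E16.5 against E14.5 (log2 fold change -0.69 ± 0.12, edgeR adjusted p = 3.94e-04). The first was -0.39 without the 5 libraries and not called (edgeR adjusted p = 0.217). Over the course the change was -2.77 ± 0.12 on the log2 scale (edgeR adjusted p = 1.55e-13), and -2.54 without them.

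Axin2, the scaffold of the beta-catenin destruction complex and a widely used feedback target of the canonical branch, moved far less. It had 11.7, 17.3 and 15.5 CPM at E9.5, then 14.9, 13.9, 15.7 and 13.3 at E10.5, then 16.01, 16.4, 14.01 and 17.5 at E12.5, then 11.9, 11.3 and 11.6 at E14.5, and 8.23, 6.49, 11.4 and 8.01 at E16.5. The libraries of E9.5, E10.5 and E12.5 overlapped, and those of E14.5 lay below those of E12.5. At E16.5 the mean was 8.54 ± 2.08 CPM, against 14.8 ± 2.82 CPM at E9.5 (log2 fold change -0.79 ± 0.15, edgeR adjusted p = 1.16e-04), and without the 5 libraries the change was -0.46 and not called (edgeR adjusted p = 0.0740). Calls at E14.5 against E12.5 (log2 fold change -0.46 ± 0.15, edgeR adjusted p = 0.0427) and at E16.5 against E14.5 (log2 fold change -0.44 ± 0.15, edgeR adjusted p = 0.0462) lay near the threshold. The first was lost when any of 9 single libraries was left out (-0.48 to -0.42), without the 5 libraries (-0.42) and with the replicate number as a block. The second was lost when any of 13 single libraries was left out (-0.46 to -0.33) and with the block. The steps at E10.5 against E9.5 and at E12.5 against E10.5 did not pass the test.

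Promoter windows were searched for the letters that Tcf and Lef factors bind. RefSeq windows on GRCm38.p6, from 250 bases before to 50 bases after a transcript start, were given for 28 of the 40 members (35 windows). The forms searched on either strand were CTTTGAA, its variant CTTTGAT, the related CTTTGTA and, as the last form, CTTTGTT, and no other motif was searched. A match lay in 6 of the 35 windows (17.1%) and in 5544 of all 32851 windows (16.9%). A match is a description of the letters and not a binding site. The 250 bases before the RefSeq start are shown for Axin2 (chr11:108920099-108920348, plus strand) and Lef1 (chr3:131110047-131110296, plus strand), the canonical transcripts whose courses differed, and neither of the stretches shown holds a match. Lef1 has 4 windows, and 1 of the others, at a start further downstream (chr3:131156044-131156343), holds 1. They are shown beside Wnt11 (chr7:98834862-98835111, plus strand) and Fzd7 (chr1:59481897-59482146, plus strand), a ligand and a receptor whose stretches each hold 1 match, given in capitals.
Axin2: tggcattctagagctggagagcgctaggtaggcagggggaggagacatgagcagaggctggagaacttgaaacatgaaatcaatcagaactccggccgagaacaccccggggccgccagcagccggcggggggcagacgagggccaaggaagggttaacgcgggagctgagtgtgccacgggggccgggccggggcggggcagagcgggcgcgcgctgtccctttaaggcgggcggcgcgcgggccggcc
Lef1: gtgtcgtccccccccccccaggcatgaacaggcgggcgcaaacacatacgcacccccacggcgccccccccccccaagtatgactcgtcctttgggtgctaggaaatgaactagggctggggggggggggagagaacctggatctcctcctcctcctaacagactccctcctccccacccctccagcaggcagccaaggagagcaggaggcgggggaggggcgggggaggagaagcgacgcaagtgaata
Wnt11: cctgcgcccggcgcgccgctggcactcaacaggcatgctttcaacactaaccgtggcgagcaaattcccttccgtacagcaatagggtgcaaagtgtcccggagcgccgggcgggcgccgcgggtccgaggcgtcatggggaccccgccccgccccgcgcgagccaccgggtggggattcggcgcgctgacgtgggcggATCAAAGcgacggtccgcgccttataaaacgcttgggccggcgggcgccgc
Fzd7: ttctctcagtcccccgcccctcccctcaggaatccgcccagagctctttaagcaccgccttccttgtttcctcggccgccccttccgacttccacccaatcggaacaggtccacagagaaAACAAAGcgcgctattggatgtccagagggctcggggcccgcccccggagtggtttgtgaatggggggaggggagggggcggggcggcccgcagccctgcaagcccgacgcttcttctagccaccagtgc
The match begins 51 bases before the RefSeq start in Wnt11 and 130 bases before it in Fzd7.

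Beside the members, 86 further genes of the pathway were followed, of which 76 passed the expression filter and 59 differed over the 5 stages (77.6%, beside 71.7% of all genes). At E10.5 against E9.5, 15 rose and 9 fell (31.6%, beside 18.2% of all genes), and without the 5 libraries 10 were called, each as higher. Cyclin D1 (Ccnd1), a cell cycle regulator, had 198 ± 25.2 CPM at E10.5, against 98.0 ± 24.7 CPM at E9.5 (log2 fold change 1.01 ± 0.13, edgeR adjusted p = 1.31e-05, and 0.95 without the 5 libraries). Shisa2, of a family known from the frog to retain Frizzled in the endoplasmic reticulum, had 30.4 ± 4.03 CPM at E10.5, against 58.0 ± 14.6 CPM at E9.5 (log2 fold change -0.93 ± 0.15, edgeR adjusted p = 1.73e-04, and -0.54 without the 5 libraries, where it was not called). The other genes named by the same rule were Cthrc1 and Pygo1, which rose by 1.28 and 0.87 on the log2 scale, and Shisa3 and Sost, with log2 fold changes of -0.89 and -0.69. Without the 5 libraries, Pygo1 was called (0.78), while Cthrc1 (0.60), Shisa3 (-0.78) and Sost (-0.34) were not.

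At E12.5 against E10.5, 24 rose and 10 fell (44.7%, beside 38.0% of all genes), and 20 rose and 7 fell without the 5 libraries. Of 14 tested antagonists and co-receptors outside the members 10 rose and none fell (beside 20.0% of all genes higher and 18.1% lower). Notum, the secreted enzyme that removes the lipid from Wnt proteins, had 4.75 ± 0.495 CPM at E12.5, against 0.733 ± 0.285 CPM at E10.5 (log2 fold change 2.68 ± 0.28, edgeR adjusted p = 3.46e-07, and 2.87 without the 5 libraries). Cthrc1, a secreted protein that binds Wnt and Frizzled, had 29.4 ± 4.81 CPM at E12.5, against 12.8 ± 1.21 CPM at E10.5 (log2 fold change 1.197 ± 0.23, edgeR adjusted p = 6.04e-04, and 1.31 without the 5 libraries). Shisa3 rose by 1.35 on the log2 scale, and the largest falls among genes at 3 CPM or more were those of Amer1 (-0.62), Ccnd1 (-0.46) and Apc (-0.41). The last was not called without the 5 libraries (-0.29). At E14.5 against E12.5, 2 rose, Lgr6 and Camk2d, and 14 fell (21.1%, beside 14.8% of all genes), against 4 and 16 without the 5 libraries. Lgr6, an R-spondin receptor, had 6.17 ± 0.498 CPM at E14.5, against 2.66 ± 0.147 CPM at E12.5 (log2 fold change 1.21 ± 0.19, edgeR adjusted p = 1.99e-04, and 1.22 without the 5 libraries). Notum, Shisa2 and Cthrc1 fell, with log2 fold changes of -0.95, -0.93 and -1.004. At E16.5 against E14.5, 7 rose and 7 fell, a share near the background (18.4%, beside 18.9% of all genes). Sost, a secreted inhibitor of Lrp5 and Lrp6, had 22.1 ± 4.19 CPM at E16.5, against 11.9 ± 1.10 CPM at E14.5 (log2 fold change 0.89 ± 0.15, edgeR adjusted p = 3.00e-04). Gpc3, a glypican of the cell surface, had 338 ± 23.6 CPM at E16.5, against 497 ± 17.5 CPM at E14.5 (log2 fold change -0.56 ± 0.06, edgeR adjusted p = 6.91e-06).

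Over the whole course, at E16.5 against E9.5, 30 of the 76 rose and 21 fell, a share near the background (67.1%, beside 64.9% of all genes), and 26 rose and 12 fell without the 5 libraries. Lgr6 changed the most among them, with 10.8 ± 2.08 CPM at E16.5, against 0.7103 ± 0.238 CPM at E9.5 (log2 fold change 3.92 ± 0.23, edgeR adjusted p = 1.86e-11, and 3.90 without the 5 libraries). Apc2, a paralogue of Apc, had 19.6 ± 3.64 CPM at E16.5, against 2.41 ± 1.25 CPM at E9.5 (log2 fold change 3.02 ± 0.29, edgeR adjusted p = 6.75e-08, and 2.36 without the 5 libraries). Celsr3, a cadherin of planar cell polarity, had 4.95 ± 1.63 CPM at E16.5, against 0.924 ± 0.691 CPM at E9.5 (log2 fold change 2.41 ± 0.71, edgeR adjusted p = 0.00742, and 1.53 without the 5 libraries). Among genes at 3 CPM or more, falls were led by Shisa2 (-1.33), Tnfrsf19 (-1.06) and Amer1 (-0.92), of which Amer1 was -0.57 without the 5 libraries. Against the same background of 64.9%, 42.9% of the 14 genes of Dishevelled and the destruction complex were called, 2 as higher and 4 as lower. Of the 20 genes of planar cell polarity and noncanonical signalling, 9 rose and 6 fell (75%), and of the 12 genes for beta-catenin and its nuclear partners 4 rose and 5 fell (75%).

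Members were also compared between the 5 libraries low in macrophage-type transcripts and the other 13, with stage held in the model. These sets were drawn from the 8 macrophage-type transcripts and not from the labels, no member entered them, and E14.5 and E16.5 hold none of the 5. Of the 39 tested members 10 were called by edgeR at an adjusted p under 0.05, a share near the 21.8% of all genes. Fzd1, Fzd3, Fzd4, Lrp5, Lrp6, Ror2, Wnt5a and Dkk3 were higher in the 5 libraries, with Fzd3 at 0.69 and Lrp6 at 0.31 on the log2 scale. Wnt4 (-0.58) and Wnt7b (-1.15) were lower in them. Some steps that were not called with all 18 libraries were called without the 5. These were the falls of Wnt2 (-0.70) at E14.5 against E12.5 and of Wnt11 (-0.45) at E12.5 against E10.5. Likewise called were the rises of Wnt9a (0.71) at E12.5 against E10.5, of Lrp5 (0.63) and Lrp6 (0.60) at E10.5 against E9.5, and of Fzd4 (0.31) and Ror1 (0.39) at E14.5 against E12.5. What sets these libraries apart was not tested.

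Reads of 9 members could also have come from an annotated gene on the opposite strand, since the strand setting of the counting is not given in the sources used here. The share of exon length that overlaps was 17.8% for Fzd5, 16.1% for Sfrp2, 13.8% for Lef1, 13.1% for Rspo3, 8.80% for Wnt11, 6.62% for Wnt7b, 4.58% for Wnt5a, 3.80% for Axin2 and 3.16% for Fzd6. How many reads fell in the overlapping stretches was not measured, so the values of these genes are uncertain.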

How the data were processed

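RNA was extracted from embryonic hearts with the RNAqueous-Micro kit and made into standard Illumina libraries, per the labels' protocols. The authors deposited raw read counts per Ensembl gene, 1 file a library. The submitters' processing notes list the tools STAR 2.5.2b, Trimmomatic 0.36, Subread 1.5.2 and featureCounts, with GRCm38 and mm10 as builds. Neither the annotation release nor the strand setting is given in the sources used here.

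Of 49315 identifiers, 48970 had a symbol and 49056 were in the GENCODE annotation of GRCm38 used for lengths and coordinates. The deposited counts were fitted with edgeR 4.0.16 in R 4.3.3 (quasi-likelihood, robust, filterByExpr by stage, TMM scaling, stage as the only term, all 18 libraries), with Benjamini-Hochberg adjustment over the 18885 genes tested. The code was first tested on simulated data. CPM use TMM-scaled library sizes, and levels per kilobase use the union of annotated exons. No pair of libraries of a stage was alike within sampling noise, since the chi-square per degree of freedom of their counts was 6.06 to 79.8 over 24 pairs.

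Values in every library are given for Axin2, Lef1, Tcf7 and the 16 members that passed the threshold, reached a stage mean of 3 CPM and had the largest log2 range of stage means. From the pathway list, the genes named are drawn from the 3 largest rises and falls per comparison at 3 CPM or more. At E16.5 against E14.5 only Sost and Gpc3 are named, of the 7 that rose and the 7 that fell. The members, gene lists and tests were chosen with earlier results of these data known. Counting intervals cover counting error only. Alternatives were other scalings and filters, DESeq2 1.42.0, the replicate number as a block, leaving out libraries, and fits on 2 stages only. Identity between paralogous proteins, a planned description, was not run.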

Additional observations from a re-analysis of the deposited data

Results flagged for a closer look

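In groups of 4 libraries, a library was singled out where its gap to the nearest other library took up more of the group's range than Dixon's 95% critical value for 4 values. Of 120 groups of the 40 listed members, 8 were singled out (6.67%), and chance gives about 1 in 20. Sfrp2 was high in E12.5 replicate 1, at 153.8 CPM, against 95.9 to 101 CPM in the other libraries of that stage, and Rspo1 was low in the same library, at 8.64 CPM, against 10.9 to 11.2 CPM. E12.5 replicate 4, 1 of the 5 libraries low in macrophage-type transcripts, was high in Fzd1, at 133 CPM against 108 to 110.9 CPM, and in Ror2, at 66.6 CPM against 54.9 to 56.3 CPM. Fzd5 was low in E10.5 replicate 4, at 9.995 CPM against 12.8 to 12.9 CPM, and high in E12.5 replicate 3, at 17.7 CPM against 10.8 to 11.5 CPM. Wif1 was high in E10.5 replicate 4, at 0.498 CPM against 0.287 to 0.313 CPM. Wnt4 was low in E16.5 replicate 2, at 5.71 CPM against 7.68 to 7.93 CPM.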

How the results depend on the processing

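Of 97 calls of a member in a comparison, 68 held in all 27 alternative settings and 29 were lost in at least 1, and no called value changed sign. Counts of called members stayed within 1.5 times in every comparison, with these exceptions: 13 instead of 20 at E10.5 against E9.5 without the 5 libraries, and 16 instead of 10 at E16.5 against E14.5 when scaled by library totals alone. The log2 fold changes at E16.5 against E9.5 that changed sign were never called: Wnt6 was 0.12 without the 5 libraries, against -1.11 with all of them, and Lrp6 was 0.30 without the 5 libraries and 0.0892 with these as a term, against -0.13. The cause was not tested. Leaving out each library in turn gave 18 to 22 called members at E10.5 against E9.5, 17 to 23 at E12.5 against E10.5, 8 to 13 at E14.5 against E12.5, 7 to 11 at E16.5 against E14.5, 34 to 36 at E16.5 against E9.5 and 36 to 39 over the 5 stages. Scaling by library totals lost the calls of Axin2 and Fzd1 at E14.5 against E12.5 and of Fzd4 at E16.5 against E9.5, and fits on the 2 stages alone lost Wnt11 at E10.5 against E9.5, Axin2 at E16.5 against E14.5, and Frzb and Fzd4 at E16.5 against E9.5. With the longest transcript as the length, the Wnt11 share of the ligand sum was 17.6% at E16.5, against 16.52%, and 23.2% at E9.5, against 20.7%.

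Same-numbered libraries did not deviate together more than others. Of 33 such pairs, 8 had a correlation over 0.1 (median -0.02, range -0.639 to 0.498). Of 96 pairs with other numbers, 28 did (median 0.004, range -0.638 to 0.663). The highest and lowest values lay between libraries of E9.5, E10.5 and E12.5, the stages that hold the 5 libraries. The check therefore cannot exclude a pairing. With the replicate number as a block, 20 members were called at E10.5 against E9.5, 21 at E12.5 against E10.5, 10 at E14.5 against E12.5, 9 at E16.5 against E14.5, 34 at E16.5 against E9.5 and 36 over the 5 stages. Depth limits Wnt3, Wnt6, Sfrp4 and the E9.5 level of Wif1, which rest on few counts.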

Other observations

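Of the 7 Wnt ligands outside the member list, Wnt7a and Wnt10b passed the expression filter, and both are named after their values were seen. Both stood under 1 CPM in stage mean at every stage. Wnt7a averaged 0.808 ± 0.341 CPM at E12.5, against 0.215 ± 0.0636 CPM at E10.5 (log2 fold change 1.89 ± 0.44, edgeR adjusted p = 0.00198, and 2.04 without the 5 libraries low in macrophage-type transcripts). Wnt10b averaged 0.282 ± 0.0859 CPM at E12.5, against 0.0380 ± 0.0466 CPM at E10.5 (log2 fold change 2.81 ± 0.68, edgeR adjusted p = 0.00296, and 2.27 without the 5 libraries, where it was not called). The E12.5 libraries of each lay above all of those of E10.5.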
